A study of Mus musculus with 11 samples.

Results

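The Th2 cytokine locus was examined in contact maps of Th1 cells. The locus was set by position on mouse build mm9 as chr11:53200001-53800000, a core of 600 kb, with 500 kb of flank on each side. It holds 4 genes: Il4 near 53.43 Mb, Il13 near 53.44 Mb, Rad50 at 53.46 to 53.52 Mb, and Il5 near 53.53 Mb. Together the core and its flanks took up 64 bins of 25 kb, of 98702 such bins with a fragment end in the ensemble map. At this resolution Il4 and Il13 share the bin 53425001 to 53450000, Rad50 spans the 3 bins from 53450001 to 53525000, and Il5 lies in the bin 53525001 to 53550000.

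Il4, Il5 and Il13 encode interleukins 4, 5 and 13, the cytokines that mark type 2 helper T cells. Interleukin 4 drives B cells to make IgE and steers naive T cells to the Th2 fate, interleukin 13 acts on epithelium and mucus production, and interleukin 5 supports eosinophils. Rad50, a DNA repair gene of the MRE11 complex, lies between Il13 and Il5, and its 3′ part carries the locus control region of the Th2 cytokine genes. The transcription factor GATA3 activates the locus in Th2 cells, while Th1 cells use T-bet, keep these genes silent and express Ifng, the gene of interferon gamma. In mouse helper T cells the Th2 locus on chromosome 11 and Ifng on chromosome 10 are known as an example of loci reported to meet in trans before the fates part.

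The promoters of the cytokine genes are shown because the contacts below are about the DNA around them and because their sequence sets how the assay can read them. Sequences of 250 bases before the start, 5′ to 3′, came from RefSeq on build GRCm38.p6, which differs from the mm9 build of the maps, so their coordinates must not be set against the others here. Of the 4 genes, 3 had an entry. Capitals mark matches to the GATA motif, spelled as A or T, then GATA, then A or G, and searched on both strands.
Il4 (chr11:53618666-53618915, minus strand): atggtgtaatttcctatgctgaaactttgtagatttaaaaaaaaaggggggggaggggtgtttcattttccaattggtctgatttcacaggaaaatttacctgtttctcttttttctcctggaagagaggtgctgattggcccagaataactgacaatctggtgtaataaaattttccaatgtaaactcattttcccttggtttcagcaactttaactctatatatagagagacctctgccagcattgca
Il13 (chr11:53634703-53634952, minus strand): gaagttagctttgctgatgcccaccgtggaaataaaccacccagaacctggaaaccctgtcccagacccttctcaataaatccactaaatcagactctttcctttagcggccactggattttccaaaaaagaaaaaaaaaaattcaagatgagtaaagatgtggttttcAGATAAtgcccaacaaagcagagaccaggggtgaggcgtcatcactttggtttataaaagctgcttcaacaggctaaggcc
Il5 (chr11:53720544-53720793, plus strand): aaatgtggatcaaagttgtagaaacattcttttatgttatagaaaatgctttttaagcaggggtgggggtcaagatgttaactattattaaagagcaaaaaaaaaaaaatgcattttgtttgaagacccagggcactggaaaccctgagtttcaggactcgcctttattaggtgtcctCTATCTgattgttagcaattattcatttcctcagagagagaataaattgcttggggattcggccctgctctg
The Il13 window held 1 GATA match, 81 bases before the start, and the Il5 window held 1, on the reverse strand, 72 bases before the start. The Il4 window printed held 0, and the window of a second listed Il4 start held 1 (TGATAG). Among 32851 promoter windows of this length, 26.5% held the motif, so a match is common. The Bgl II site AGATCT was in 0 of these windows, against 6.37% of all windows. By this sequence no contact end of a Bgl II map lies inside them, and contacts of a promoter were read at sites elsewhere in its bin. The Dpn II site GATC was in 1 of them, that of Il5, against 41.9% of all windows.

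Hi-C cuts crosslinked chromatin, joins ends that were neighbours in the nucleus and sequences the junctions. A contact thus names the 2 fragment ends of a junction, in cis on 1 chromosome or in trans between 2. Maps came from 10 single cells (Bgl II digests of 9 and a Dpn II digest of cell 8), from a pool of single cells made by the authors, and from an ensemble (population) of cells cut with Bgl II. All were labelled Th1 cells from spleens of male C57BL/6 mice, stimulated with 1 µg/ml anti-CD3 for 3 days, selected with CD4 beads and expanded in 20 ng/ml interleukin 2. No gene was altered, and no Th2, naive or other cells were part of the design, so the locus is set here against the rest of chromosome 11 or of the genome in the same map. The labels do not state how many animals or cultures gave the cells, so the spread between cells may be partly technical. No RNA was measured, so neither the Th1 label nor the silence of Il4, Il5 and Il13 could be checked. The ensemble held 51834382 contacts, the pool 2294791 and the cells 11156 to 30665. The pool contains the 9 Bgl II maps whole, so the pool without them, 2119836 contacts, is given beside it where it matters.

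The locus was well covered in the ensemble and thinly in cells. Its core held 48372 ensemble contact ends on 401 fragment ends, and core and flanks together held 130820. In the pool the core held 1372 ends, and in the 10 cells together it held 90, with 3 to 18 per cell. The Il4/Il13 bin had 2540 ensemble ends, or 159 per fragment end, 1.69 times the chromosome 11 median. The Rad50 bins had 2169, 2582 and 1367 ends, at 1.28, 0.983 and 1.04 times that median, and the Il5 bin had 1725, at 1.23 times. In the pool the same ratio was 1.07 for the Il4/Il13 bin, 0.968 to 1.34 for the Rad50 bins and 0.743 for the Il5 bin. Among the member bins, coverage per fragment end was highest at Il4/Il13 in the ensemble and at the middle of Rad50 in the pool.

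Within the core, 25 kb bins met more often in the ensemble than bins at the same distance elsewhere on chromosome 11. Contacts were balanced for bin coverage and divided by the mean at that distance, so 1 is the level expected from distance alone. Of 276 core pairs, 51 (18.5%) were at 2-fold or more, beside 12.6% of all pairs in 600 kb tiles of the genome. At 0.5-fold or less there were 13 (4.71%), beside 34.9% of all pairs. Without balancing, 108 core pairs (39.1%) were at 2-fold or more, beside 15.0% of all, and with raw contacts divided by fragment ends 91 (33.0%), beside 14.4%. The median core pair stood at 1.46, against 0.832 over all pairs. Summed over the core, 3066 contacts were observed against 2031 expected, a ratio of 1.51 (95% exact Poisson interval 1.46 to 1.56, for counting error alone). That ratio was above 92.0% of 3790 tiles, whose median was 0.906. Poisson intervals here and below treat each listed contact as independent.

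The excess was less marked beside tiles of the same compartment. Class 1 is the set of 1 Mb bins on the positive side of the first eigenvector of the ensemble map, the side richer in Bgl II fragment ends, and the locus lies in it. Among 1448 class 1 tiles the median ratio was 1.15 and the core stood above 79.2% of them. Among 84 class 1 tiles of chromosome 11 the median was 1.22 and the core stood above 73.8%. Class 2 tiles, 2342 in number, had a median of 0.837, and the core stood above 99.9% of them. The pair counts were also less marked. For pairs at 2-fold or more, the core stood above 66.3% of class 1 tiles, whose median share was 12.7%. On chromosome 11 it stood above 76.2% of them (median 10.1%). For pairs at 0.5-fold or less, it stood above 12.9% of class 1 tiles (median 17.4%). On chromosome 11 it stood above 29.8% of them (median 8.33%). A single ensemble map gives no test of these places.

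**Figure D1:**
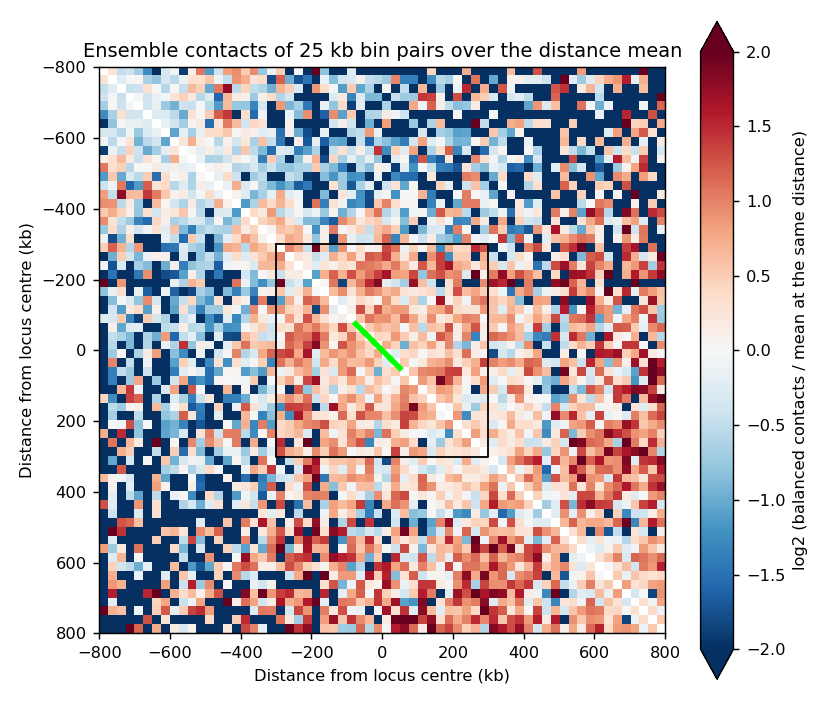
Each square is a pair of 25 kb bins in the ensemble map; both axes give distance from the centre of the core in kb, the colour gives log2 of balanced contacts over the mean at the same distance (values under -2 are drawn at -2), the black box is the 600 kb core and the green line the bins of Il4, Il13, Rad50 and Il5. The core and right flank are mostly red (summed ratios 1.51 and 1.54), and the block joining the left flank to the core is mostly blue (0.788).

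The core was joined to its right flank and set apart from its left one. Contacts between core and right flank stood at 1.44 times expected (2010 contacts, interval 1.37 to 1.499), and those inside the right flank at 1.54 (1.47 to 1.60). Contacts between left flank and core stood at 0.788 (1195 contacts, 0.744 to 0.834), and those inside the left flank at 0.941 (0.895 to 0.989). Left and right flank met at 0.769 (0.693 to 0.850). The pool had the same order of sides, with 1.47 (1.198 to 1.77) for core and right flank and 0.709 (0.528 to 0.932) for left flank and core. Inside the core the pool stood at 1.32 (175 contacts, 1.13 to 1.53).

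Named by size, the highest core pair with an expected count of at least 5 joined the bins 53575001 to 53600000 and 53650001 to 53675000, beyond Il5, with 60 contacts against 16.0 expected (3.74, interval 2.85 to 4.81). The next 4 ranged from 2.58 to 2.60. Among them, the Il5 bin met the bin 53775001 to 53800000 with 14 contacts against 5.40 (2.59), and the middle Rad50 bin met the bin 53275001 to 53300000 with 13 against 5.04 (2.58). The other two joined bins without a member, 53550001 to 53575000 with 53700001 to 53725000 (20 contacts against 7.70) and 53250001 to 53275000 with 53650001 to 53675000 (22 against 8.54). The 5 lowest pairs held 3 to 6 contacts at 0.424 to 0.667 of expected, and 3 of them involved the middle Rad50 bin, paired with bins 75 to 250 kb to its right. Their intervals all included 1, the widest from 0.182 to 1.71, so none of these low pairs was told from its expected count at this depth.

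The genes of the locus met each other at 1.32 to 1.56 times the distance mean, less clearly between Il5 and the others. The core as a whole stood at 1.51, with a median pair of 1.46, so these balanced values do not set the genes apart from other core pairs. The Il4/Il13 bin met the Rad50 bins in 78 ensemble contacts, against 52.1 expected, a ratio of 1.497 (interval 1.18 to 1.87). By Rad50 bin, from the side of Il13, the counts were 37, 28 and 13 against 26.3, 17.1 and 8.76. The interval of the middle bin lay above 1 (1.09 to 2.37). Those of the first (0.992 to 1.94) and the third (0.791 to 2.54) included 1. The Il4/Il13 bin met the Il5 bin, 100 kb away, in 15 contacts against 9.58, a ratio of 1.56 (0.876 to 2.58), above 79.2% of pairs at that distance on all chromosomes. Rad50 and Il5 shared 40 contacts against 30.3, a ratio of 1.32 (0.944 to 1.80). The Rad50 bins differed in this: the farthest from Il5 met it 16 times against 8.75, the middle one 15 times against 10.9, and the bin next to Il5 9 times against 10.6 (0.846, 0.387 to 1.61). The intervals of the last 2 of these bins, and of both sums with Il5, included 1. Without balancing the 3 sums stood at 2.33 for Il4/Il13 with Rad50, 2.06 for Il4/Il13 with Il5 and 1.19 for Rad50 with Il5. In that setting the core as a whole stood at 1.83.

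The pool was too thin to set these pairs apart from distance. It held 5 contacts of Il4/Il13 with Rad50 against 4.77 expected, 1 of Il4/Il13 with Il5 against 0.398, and 3 of Rad50 with Il5 against 3.04. In the 10 cells, 0 contacts joined any pair of member bins. Within Rad50, the pool held 9 contacts between the middle bin and the bin next to Il5 against 3.68 (2.45, interval 1.12 to 4.64), and the ensemble 23 against 13.8 (1.67, 1.06 to 2.50).

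Seen from the member bins, contacts with the rest of the core stood above the distance mean on both sides, and those with the left flank stood below it for all but the middle Rad50 bin. Towards core bins to the left, the ensemble ratio was 1.74 for Il4/Il13, 1.76, 1.82 and 1.73 for the Rad50 bins and 1.55 for Il5, each with an interval above 1. Towards core bins to the right it was 1.46 for Il4/Il13, 1.22 to 1.44 for the Rad50 bins and 1.503 for Il5, with an interval that included 1 for the Rad50 bin next to Il5 (0.953 to 1.53). Towards the right flank Il5 stood highest, with 86 contacts against 47.2 (1.82, 1.46 to 2.25), and Il4/Il13 had 82 against 60.7 (1.35, 1.07 to 1.68). Towards the left flank Il4/Il13 had 66 against 85.4 (0.773, 0.598 to 0.984) and Il5 33 against 44.2 (0.746, 0.513 to 1.05). The middle Rad50 bin was the exception there, with 70 against 63.6 (1.10, 0.858 to 1.39).

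**Figure D2:**
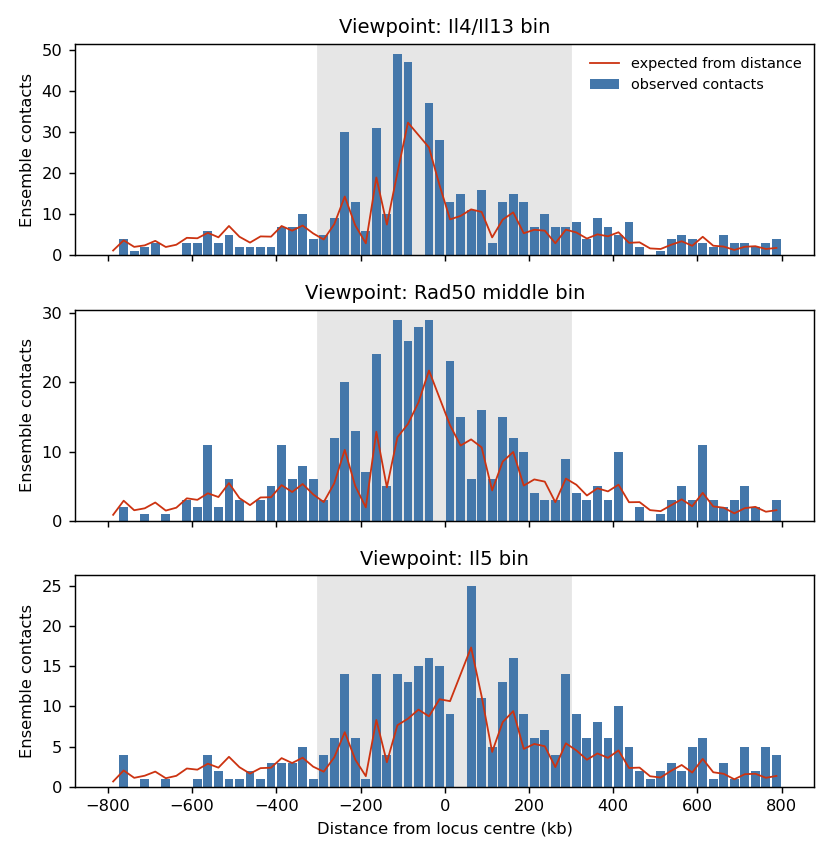
Bars are ensemble contacts of the Il4/Il13 bin, the middle Rad50 bin and the Il5 bin with every other 25 kb bin of the locus and flanks, by distance from the core's centre in kb; red lines are the counts expected from distance and bin coverage, and grey marks the core. Bars stand above the line over much of the core, as for the Il4/Il13 bin with 200 contacts against 115 to its left in the core. In the left flank the bars sum to less than expected for the Il4/Il13 and Il5 bins, and to more for the middle Rad50 bin (70 against 63.6).

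No domain boundary lay between the genes in the ensemble. The insulation score is log2 of mean balanced contacts crossing a point within 500 kb over the chromosome mean, in 50 kb bins, and a boundary is a minimum with a prominence of at least 0.1. Over 13 positions of the core 0 were boundaries, beside 7.52% of 48211 positions in the genome. At that share, 0 in 13 positions is a common outcome, so the count alone does not set the locus apart. The score was lowest at the core's left edge (-0.31), 0.40 at the median, above 85.4% of positions, and highest at its right edge (0.58). The nearest boundary to the left was at 53100000 (score -0.47), 100 kb outside the core, and that to the right at 55300000 (-1.74). Of all boundaries, 39.3% scored lower than the left one and 0.386% lower than the right one. The locus thus lay in a domain of 2200 kb, longer than 99.0% of 3605 domains, whose median was 650 kb. In the pool, which called more boundaries (15.6% of positions), 3 of the 13 core positions were boundaries, at 53250000, 53550000 and 53650000. Il4 and Il5 shared a domain in both maps, of 300 kb in the pool. The right end of the ensemble's domain rested on the settings. With a 250 kb window, or without balancing, 2 of 13 core positions were boundaries, beside 13.8% of all positions with that window and 7.31% without balancing, and the domain ran for 450 kb to 53550000, just right of the Il5 bin. With 25 kb bins it ran for 1400 kb.

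**Figure D3:**
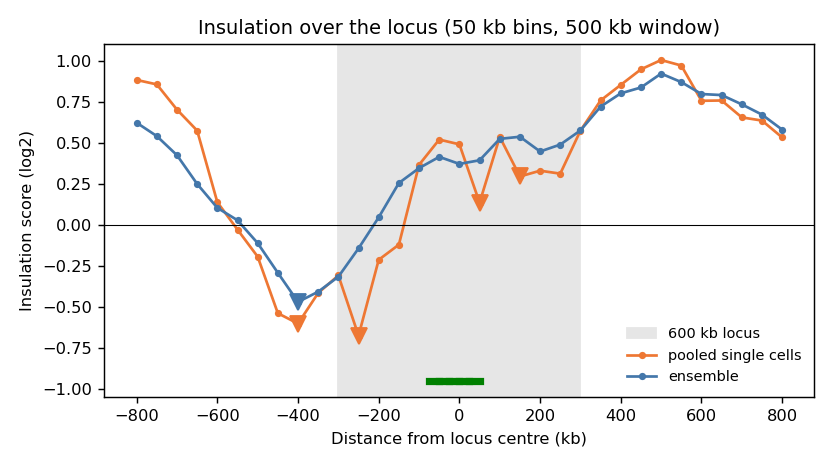
Insulation score (log2) by distance from the core's centre in kb for the ensemble and the pooled single cells; triangles are called boundaries, grey is the 600 kb core and the green bar the member bins. Both curves dip to the left of the genes and climb to the right; the ensemble has 0 boundaries in the core and the pool 3.

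The locus lay among the bins most strongly of class 1 on its chromosome. The 1 Mb bin 53000001 to 54000000 had an eigenvector value of 0.109, rank 8 of 119 on chromosome 11. The bin before it ranked 34 and the bin after it 21. The bin of Ifng was also class 1, rank 3 of 127 on chromosome 10. With 500 kb bins the locus ranked 4 of 238 and Ifng 30 of 254. Without balancing the locus ranked 9, while on chromosome 10 the eigenvector was positive in 100% of bins and gave no classes. Class here is a property of contacts and fragment density alone, with no measure of transcription.

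Long-range partners of the locus were more often in class 1 than those of chromosome 11. Classes group bins by their ensemble contacts, and the locus is of class 1, as are 44.5% of chromosome 11 bins. A comparison with the mixed chromosome therefore cannot set the locus apart from other class 1 bins. Over trans contacts and cis contacts beyond 10 Mb, 55.6% of partners at the median over the 9 Bgl II cells were in class 1 (lowest 42.9%, highest 100%), against 46.8% for the rest of chromosome 11 (40.8% to 50.8%). These shares rest on 5 to 20 long-range ends per cell at the locus, and the 100% is 5 of 5 in cell 7. The groups overlapped, and 8 of 9 cells were higher at the locus. The mean difference was 16.7 ± 15.7 percentage points (SD, n = 9), with p = 0.0117 by an exact two-sided permutation test that flips the sign of each cell's difference, 0.0469 after Benjamini-Hochberg adjustment over 4 such tests. Leaving out 1 cell moved the mean between 12.6 and 18.9 and the adjusted p between 0.0312 and 0.0938, and the call held in 2 of 9 such fits, without cell 4 or without cell 6. The core alone stood 36.7 ± 16.8 points above chromosome 11, in 9 of 9 cells (adjusted p = 0.0156, exact permutation test). Those shares rest on 1 to 8 long-range ends of the core per cell, with 1 end each in cells 9 and 10 and 2 in cell 7, so single ends set some of them.

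The other maps had the same direction. The pool had 73.6% of the locus's long-range ends in class 1 (95% Wilson interval 71.4 to 75.8), against 48.4% for the rest of chromosome 11, and the pool without the 9 cells 74.7% against 48.6%. The ensemble had 65.5% (65.2 to 65.8) against 57.5%, and cell 8 had 80.0%, 8 of 10 ends (49 to 94.3), against 49.9%. The classes were set from the ensemble map itself, so the ensemble difference is not a separate check. Beside class 1 bins of chromosome 11 alone, the maps differed in sign. Over the 9 cells the difference turned to -5.75 ± 14.8 points and did not pass (adjusted p = 0.273, exact permutation test, positive in 2 of 9). The ensemble had 65.5% against 66.0%, the pool 73.6% against 70.0% and the pool without the 9 cells 74.7% against 70.3%. The core alone was above class 1 of chromosome 11 by 3.68 points in the ensemble, 8.85 in the pool and 7.94 in the 10 cells summed.

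The trans share of the locus was lower than that of chromosome 11 in 8 of 9 cells, while the pool and ensemble differed from it by under 1 point with all bins kept. Of all contact ends of core and flanks, 12.5% at the median over the 9 Bgl II cells were trans (2.22% to 31.8%), against 17.9% for the rest of chromosome 11 (7.09% to 32.4%). The ranges overlapped, and 1 of 9 cells, cell 4, was higher at the locus. The mean difference was -4.91 ± 5.01 points (SD, n = 9; exact permutation p = 0.0234, adjusted 0.0469). Leaving out any of the 9 cells except cell 4 ended this call, with adjusted p up to 0.0938. The core alone differed by -0.38 ± 13.4 points (adjusted p = 0.891, exact permutation test). Cell 8 had 13.6%, 3 of 22 ends (4.75 to 33.3), against 29.4%, while the pool had 22.9% (95% Wilson interval 21.6 to 24.3) against 23.3%, the pool without the 9 cells 23.5% against 23.6% and the ensemble 50.5% (50.3 to 50.8) against 50.2%. Without the right-flank bin 53950001 to 53975000, where 6 fragment ends held 6700 ensemble ends, 88.3% of them trans, the ensemble share of the locus was 48.5% (48.2 to 48.8), and that of the core alone was 48.0%. Beside class 1 bins of chromosome 11 the cells' difference was -7.18 ± 5.03 points, below 0 in 9 of 9 cells (adjusted p = 0.0156, exact permutation test). That reference was chosen after seeing the data, while the planned whole-genome comparison did not pass (-3.10 points, adjusted p = 0.130, exact permutation test). Against the class 1 bins the pool had 22.9% against 25.7%, the pool without the 9 cells 23.5% against 26.0% and the ensemble 50.5% against 50.7%.

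**Figure D4:**
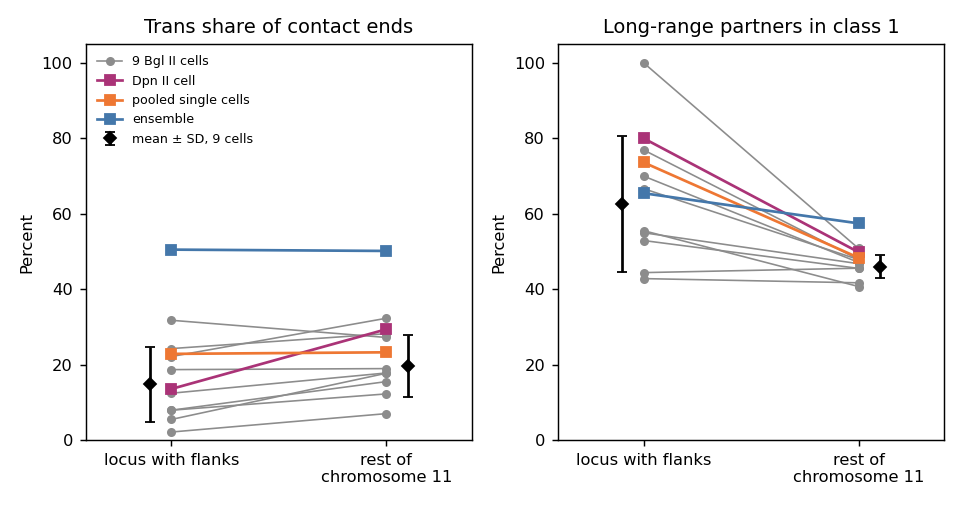
Percent of contact ends in trans (left) and percent of long-range partners in class 1 (right), for the locus with flanks and for the rest of chromosome 11; lines join the values of 1 map, black diamonds are the mean and SD over the 9 Bgl II cells. Locus shares are lower in 8 of 9 cells on the left and higher in 8 of 9 on the right, while the ensemble and pool lines on the left are nearly flat.

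Neither of the other tests over cells passed. Contact ends per Mb at the locus relative to chromosome 11 differed by -0.05 ± 0.20 on the log2 scale (exact permutation p = 0.504, adjusted 0.504), with 17.8 ± 6.04 ends per Mb at the locus against 18.5 ± 6.29. This value turned with the region and the comparison: it was -0.44 for the core alone (adjusted p = 0.0312, exact permutation test) and 0.24 against the whole genome, above 0 in 8 of 9 cells (adjusted p = 0.0234, exact permutation test). The ensemble (0.45), the pool (0.10), the pool without the 9 cells (0.11) and cell 8 (0.23) were above 0 on the same scale against chromosome 11. Per ensemble fragment end in place of per Mb, the 9 cells differed from chromosome 11 by -0.14 ± 0.20. This did not pass (adjusted p = 0.0729, exact permutation test, positive in 2 of 9). The 10 cells summed held 174 ends per Mb at the locus and 146 in the rest of the genome. Per fragment end they held 0.264 and 0.270, a comparison that was not tested over cells. The share of cis contacts under 1 Mb was 45.6% ± 16.0 at the locus against 49.96% ± 6.56 (adjusted p = 0.504, exact permutation test). The pool and ensemble also ran the other way in the short-range share, with 62.1% (60.3 to 63.9) against 52.6% in the pool and 44.0% (43.6 to 44.4) against 37.5% in the ensemble. A contact with both ends inside the locus counts as 2 ends here, so these intervals are too narrow.

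The trans contacts of the core were spread over the genome, and none was seen with the Ifng window. Between the core and the Ifng window, chr10:117600001-118100000, the ensemble held 0 contacts, against 3.20 expected from the trans ends of both. A count of 0 allows up to 3 counts, or 0.937 times the expected number, and the exact Poisson bound is 1.15 times, so a contact rate at the expected level was not told apart from none. Of 4679 windows of 500 kb on other chromosomes, 9.36% also held 0 contacts with the core, and among class 1 windows, to which Ifng belongs, 2.61% did. These windows were not matched to the Ifng window on expected count. The shares therefore do not say how rare 0 is at an expected count of 3.20. The left flank had 5 contacts with Ifng against 2.83 expected (1.77, 0.574 to 4.13) and the right flank 4 against 3.08 (1.30, 0.354 to 3.33). Core and flanks together had 9 against 9.10 (0.989, 0.452 to 1.88). With the Ifng window widened by 500 kb on each side, the core had 9 against 18.6 (0.484, 0.222 to 0.920), and with both windows widened the count was 44 against 52.8 (0.833, 0.605 to 1.12). The pool held 0 contacts of core and Ifng against 0.0455 expected and the 10 cells held 0, so neither was deep enough to show a contact at its expected rate.

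At 2-fold or more over expected were 5.15% of the 4679 windows. By class, these were 9.92% of 1764 class 1 windows and 2.28% of 2901 class 2 windows, with median ratios of 1.17 and 0.720. The 5 windows with the highest ratio among those with at least 10 contacts were all of class 1. They were chr9:44100001-44600000 with 38 contacts against 10.5 (3.62, 2.56 to 4.97), chr19:3600001-4100000 with 38 against 11.3 (3.37), chr19:6600001-7100000 with 21 against 6.33 (3.31), chr2:30100001-30600000 with 32 against 9.84 (3.25) and chr2:32100001-32600000 with 37 against 11.5 (3.23). Their contacts were spread over 19 to 37 fragment ends of the window. The pool held 1 contact with the chromosome 9 window and 0 with each of the others.

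**Figure D5:**
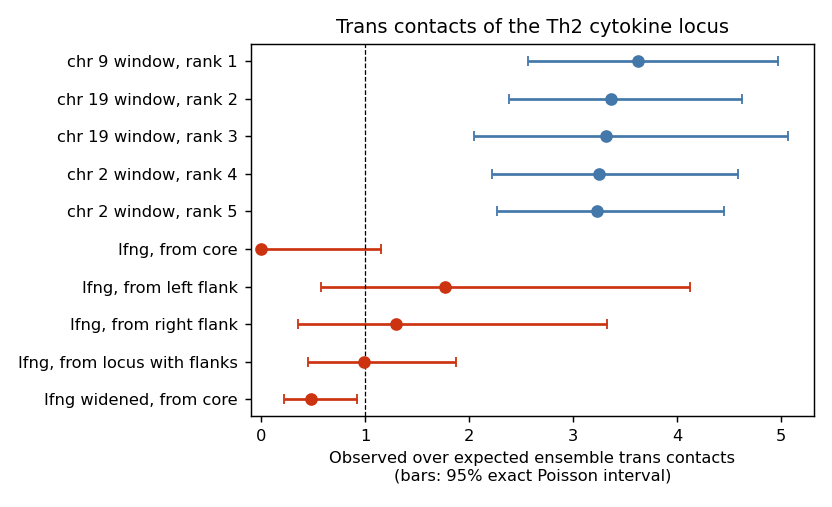
Observed over expected ensemble trans contacts with 95% exact Poisson intervals. Blue marks the 5 windows with the highest ratio to the core, chosen for their height. Red marks the Ifng window from the core, each flank, and core with flanks, and the Ifng window widened by 500 kb on each side from the core. The dashed line is 1, and the widened window lies below it (0.484, 0.222 to 0.920). The highest windows lie between 3.23 and 3.62, and the Ifng window from the core is at 0 with an upper bound of 1.15.

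In single cells the members were caught 22 times, 6 of them in trans. Every cell had at least 1 such end. Rad50, which spans 3 bins, gave 16 of them, the Il5 bin 4 and the Il4/Il13 bin 2. Per fragment end these were 0.267, 0.267 and 0.125, from counts too small to set the members apart. The Il4/Il13 bin was caught in cells 3 and 4 alone. In cell 3 its partner was 64.2 kb away in the core, and in cell 4 it was on chromosome 5. The Rad50 site at 53509281 was joined in 3 cells: to position 51615082 on the same chromosome in cell 1, to 80025688 in cell 6 and to chromosome 7 in cell 7. The Rad50 site at 53493106 was joined in cells 1, 5 and 10, in each case in cis, at distances of 24625 kb, 101 kb and 297 kb. The Il5 bin was caught in cells 1, 3 and 9, in trans with X in cell 3 and otherwise in cis. In cells 1 and 9, ends of the Il5 bin met chromosome 11 at 15165 kb and 14498 kb to the right.

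Trans partners of core and flanks differed from cell to cell, and 40 of the 278 region ends of the 10 cells were trans. Cell 2 met chromosome 9 in 3 of 8 trans ends, cell 4 met chromosomes 12 and 17 in 3 each of 7, cell 5 met chromosome 9 in 2 of 4, and cell 8 met chromosome 18 in 2 of 3. Cell 3 met 9 chromosomes once each. In the remaining cells, with 1 to 3 trans ends, each chromosome was met once. Among the cis contacts of these cells, 47 had both ends inside core and flanks.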

How the data were processed

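Contact maps of 10 single cells, a pool of single cells and an ensemble of mouse Th1 cells were used. Each deposited line lists 1 distinct contact as 2 chromosomes and 2 positions in bp, without read numbers, per the file headers. Per the submitters' processing notes the positions are on mm9. Which aligner and read filters the authors applied is not given in the sources used here. Locus, members and tests were chosen with earlier results of these data known. Gene positions came with the locus definition. No mm9 annotation was used, so neighbouring genes and the regulators of helper fates were not placed, and regions are named by the rule of largest and smallest ratio given with each result.

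Contacts were binned at 25 kb and balanced over 50 iterations without bins whose row sum was under 0.2 of the median. Insulation used 50 kb bins, compartments 1 Mb bins with the sign set by Bgl II fragment end density. Expected trans counts came from the trans ends of both windows. Over the 9 Bgl II cells, exact sign-flip permutation tests were two-sided, with a smallest possible p of 0.00391, a threshold of 0.05 and Benjamini-Hochberg adjustment over 4 tests. The ensemble, pool and Dpn II cell are 1 map each and were not tested. Poisson and Wilson intervals are at 95% and cover counting error only. Wilson intervals are over contact ends. A contact with both ends inside a region counts as 2 ends, so those of the trans and short-range shares are too narrow. Balancing, insulation and compartment steps were tested on simulated data. The tools were numpy 2.4.6, pandas 2.3.3, scipy 1.17.1, statsmodels 0.14.6 and matplotlib 3.10.9 under Python 3.11.15. Alternatives were other bin sizes, windows, thresholds, references and expected counts, no balancing, all 10 cells, and leaving out each cell.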

Additional observations from a re-analysis of the deposited data

How the results depend on the processing

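The excess of contacts inside the core kept its direction in every setting run, while its size moved. The count of core pairs at 2-fold or more was 108 without balancing and 91 with raw contacts divided by fragment ends, 7 of 66 pairs with 50 kb bins (beside 6.74% of all pairs in that setting), and 128 at 1.5-fold (beside 23.4%), against 51 of 276 pairs as reported. The summed core ratio was 1.83, 1.71 and 1.57 in the first 3 of these, and 28 core pairs were at 0.5-fold or less without balancing, beside 46.1% of all. Without balancing the Il4/Il13 bin met the Rad50 bins at 2.33. The median insulation of the core was 0.54 with a 250 kb window, 0.20 with a 1 Mb window and 0.83 without balancing, and 2 core positions were boundaries with the 250 kb window and without balancing. The eigenvector percentile of the locus was 98.3 with 500 kb bins. The ratio to Ifng ran from 0 to 0.989 over the settings. Each value lay within the interval of the main count, 0 to 1.15, which is too wide to show that the ratio is stable. For the 9 cells, the trans difference did not pass with the core alone (-0.38 points) or the whole genome as comparison (-3.10 points, adjusted p = 0.130, exact permutation test). Contact ends per Mb were called lower for the core alone (-0.44, log2, adjusted p = 0.0312, exact permutation test) and higher against the whole genome (0.24, adjusted p = 0.0234, exact permutation test). Counted per ensemble fragment end against chromosome 11 they were not called (-0.14, adjusted p = 0.0729, exact permutation test). The comparison with the whole genome was not tested per fragment end. Against class 1 bins of chromosome 11 the class 1 difference turned to -5.75 points and the trans difference was -7.18 points. That alternative was chosen after seeing the data, as was leaving out the right-flank bin. Leaving out each cell gave -6.09 to -3.99 points for the trans share, -0.086 to 0.000160 for ends per Mb, 12.6 to 18.9 points for class 1 and -6.79 to -1.49 points for the short-range share. The cause was not tested for any of these. With 16 to 45 contact ends per cell, depth limits the single-cell values. No paired analysis was possible because replicate numbers only name cells and no groups of maps were compared; within each cell, the tests already paired the locus with its own chromosome 11.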

Other observations

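A site in the right flank stood apart in the ensemble. The fragment ends at 53953751 and 53953752 on chromosome 11 held 4645 and 1464 ensemble contact ends, 54.0 and 17.0 times the chromosome 11 median, of which 93.8% and 90.8% were trans. The other 4 fragment ends of the same 25 kb bin held 104 to 186 ends each, with 32.7% to 47.3% trans. In the pool the bin held 20 ends, 0.952 times the median per fragment end. Without the bin the trans share of the right flank in the ensemble was 47.4%, against 54.0% with it, and 1 of the 9 contacts between core with flanks and Ifng used this site. The share of the core, which does not hold it, was 48.0%.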
